A study of Mus musculus with 3 samples.

Results

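The ADAMTS proteases described here are Adamts1, Adamts2, Adamts3, Adamts5, Adamts6, Adamts9, Adamts10, Adamts12, Adamts17 and Adamts20, which are 10 of the 36167 features counted. They were chosen by name, with Adamts19 left out; the rule uses no measured value, but the names were picked with earlier results of these data known. Their rows were read in nuclei with at least 1000 UMIs (unique molecular identifiers, 1 per captured RNA molecule) and no more than 5% mitochondrial UMIs. That rule kept 14073 of 21140 deposited nuclei, of which 13130 were analysed after nuclei with under 300 genes and those with the highest doublet scores were taken out.

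The tissue is labelled as aortic valve structure, a mixed tissue taken from mice on postnatal day 1. All 3 samples come from B6.Cg-Scx<tm1.1(EGFP)Skom mice, a line that carries an EGFP allele of scleraxis whose zygosity the labels do not give. The single group has 3 samples, each a pool of 22 to 24 aortic roots, so individual animals cannot be told apart and there is no second genotype or treatment. Nuclear RNA was read with the gene expression part of a 10x Multiome kit, and 1 class of nuclei is compared with another inside these pools.

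ADAMTS proteins are secreted zinc metalloproteases whose ancillary thrombospondin-type repeats bind them to the extracellular matrix. Several cleave the large proteoglycans versican and aggrecan, a step that thins the proteoglycan-rich matrix of embryonic valve cushions as they become leaflets. Others remove the amino-terminal propeptide of procollagens, or bind and organise fibrillin microfibrils, and TIMP3 is the best known tissue inhibitor of the proteoglycan-cleaving members.

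Pools 1, 2 and 3 gave 6459, 3078 and 3593 analysed nuclei, from deposited nuclei with median depths of 3634.5, 3176 and 3084 UMIs. Pairs of pools shared between 44 and 99 deposited barcodes, and between 13 and 36 of the analysed ones. Clustering, from which the 10 genes were kept out, gave 8 classes that reached 40 nuclei in each pool, named from marker lists and carrying "-like" because the labels type no nucleus. The 1457 valve interstitial-like nuclei held 9 of 9 markers of that list, summing to 3773 to 4275 CPM (a gene's UMIs per 1000000 UMIs of the class in a pool), against 123 to 162 in the 966 fibroblast-like and 32.5 to 42.5 in the 3060 smooth muscle-like nuclei. The same list summed to 1103 to 1380.2 CPM in mesothelial-like nuclei, 91.7 to 550.1 in pericyte-like and 91.8 to 312 in macrophage-like nuclei. All 9 markers were also detected in endothelial-like, macrophage-like, pericyte-like and smooth muscle-like nuclei. The class was named from this list, so its sum describes the class and does not test the name. The other classes in the fit were endothelial-like (2747 nuclei), cardiomyocyte-like (1804), mesothelial-like (376), macrophage-like (300) and pericyte-like (248), the last of which was compared with no class by a test of its own. A further 1910 nuclei in 4 clusters stayed unnamed, and lymphatic endothelial-like, melanocyte-like and adipocyte-like nuclei were too few for the fit. All values below are CPM of summed counts per pool, given for pools 1, 2 and 3 in that order, and they are compared between classes for 1 gene, never between genes, because the counts carry no transcript length.

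In valve interstitial-like nuclei Adamts20 stood above, and Adamts9 below, every other fitted class, though Adamts9 was not below every endothelial-like cluster. Against the mean of the other 7 classes, 5 of the 10 genes were higher, 3 were lower and 2 did not pass the test, at an adjusted p of 0.05 in a quasi-likelihood fit of edgeR (Benjamini-Hochberg over 14800 genes). Of all genes tested, 33.4% passed in that comparison, 18.4% higher and 15% lower. The call rate of the set, 8 of 10, was above that of all genes. The names were picked with earlier results of these data known, so this describes the set and does not test it. The median log2 difference was 0.49 over the 10 genes and 0.00 over all genes. The p-values measure the spread between 3 pools; nuclei were not used as replicates.

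**Figure D1:**
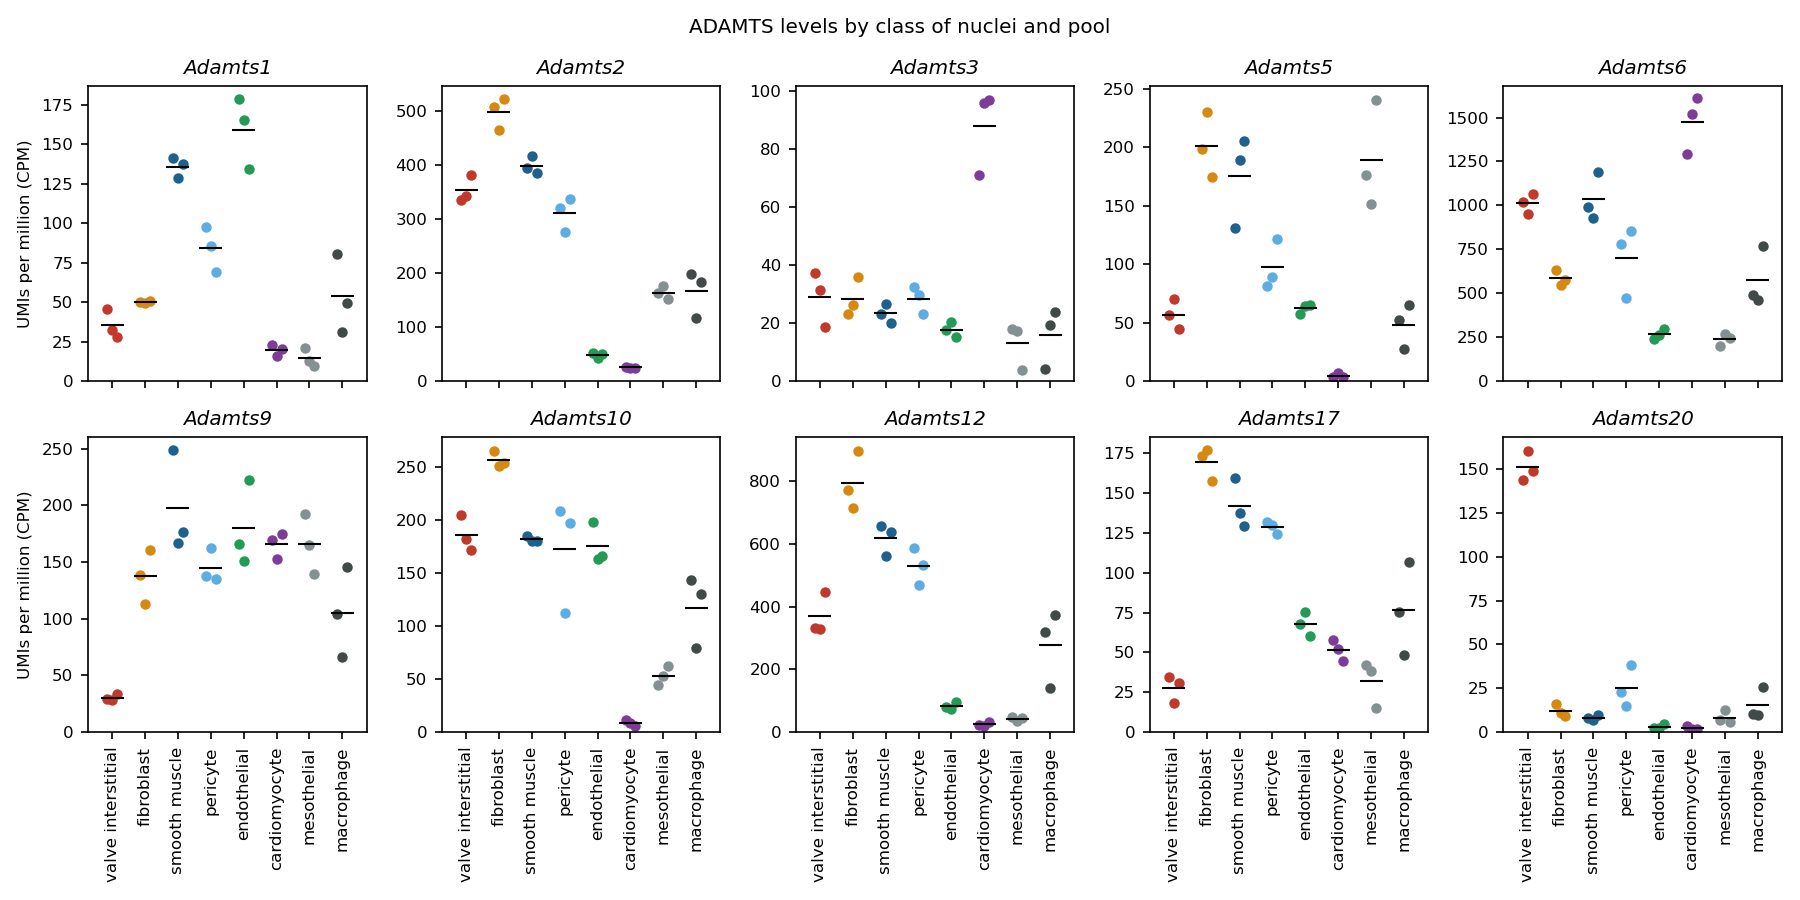
Levels of the 10 genes in the 8 fitted classes, in CPM on a linear axis that starts at 0 in each panel; each point is 1 pool and each bar is the mean of 3 pools. Adamts20 lies between 143.5 and 160.4 CPM in valve interstitial-like nuclei and no higher than 38.4 CPM in any other fitted class, while Adamts9 is lowest there.

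The 250 bases before the annotated start are shown for Adamts20, which was highest in valve interstitial-like nuclei, for Adamts9, which was lowest there, and for Adamts1, which was highest in endothelial-like nuclei. They are RefSeq sequences of build GRCm38.p6, read 5′ to 3′ on the gene's own strand, which is the minus strand for all 3. Capitals mark every match, on either strand, to CANNTG, the E-box letters that basic helix-loop-helix factors such as scleraxis read, and to TATAAA. 
Adamts20 (chr15:94404351-94404600): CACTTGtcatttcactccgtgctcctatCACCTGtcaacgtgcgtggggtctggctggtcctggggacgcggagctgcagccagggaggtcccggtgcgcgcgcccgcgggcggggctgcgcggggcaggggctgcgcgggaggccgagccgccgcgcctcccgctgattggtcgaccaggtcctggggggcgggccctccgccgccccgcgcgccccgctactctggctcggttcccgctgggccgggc
Adamts9 (chr6:92943535-92943784): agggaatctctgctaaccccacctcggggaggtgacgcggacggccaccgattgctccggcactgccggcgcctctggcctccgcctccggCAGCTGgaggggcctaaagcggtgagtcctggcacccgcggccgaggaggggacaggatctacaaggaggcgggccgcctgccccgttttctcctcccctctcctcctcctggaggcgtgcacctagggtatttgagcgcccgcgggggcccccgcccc
Adamts1 (chr16:85803114-85803363): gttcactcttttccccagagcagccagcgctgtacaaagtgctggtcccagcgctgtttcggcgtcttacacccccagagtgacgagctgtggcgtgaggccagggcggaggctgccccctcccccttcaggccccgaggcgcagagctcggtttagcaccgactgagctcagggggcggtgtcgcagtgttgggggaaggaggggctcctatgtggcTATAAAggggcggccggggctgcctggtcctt
The Adamts20 stretch held 2 E-box matches, the Adamts9 stretch 1 and the Adamts1 stretch none, and Adamts1 alone held TATAAA. Promoters were found for 7 of the 10 genes, of which 5 held CANNTG and 1 held TATAAA, against 66.2% and 12.4% of 32851 promoters of the same length. A match is a description of letters and not a bound site.

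The proteoglycan-cleaving members, Adamts1, Adamts5, Adamts9 and Adamts20, each had a different order of classes. Adamts20, the relative of Adamts9 in which the belted coat mutations of the mouse lie, was at 144, 160.4 and 149 CPM in the 3 pools of valve interstitial-like nuclei. Next came pericyte-like nuclei at 22.8, 14.8 and 38.4 and macrophage-like nuclei at 10.1, 9.69 and 25.7 CPM, then fibroblast-like nuclei at 16.2, 10.8 and 8.999 CPM. Every valve interstitial-like pool was thus above every pool of the other 7 classes, whose ranges overlapped their neighbours' except between smooth muscle-like (8.17 ± 1.48, SD, n = 3 pools) and endothelial-like nuclei (2.88 ± 1.29). Cardiomyocyte-like nuclei were lowest at 2.37 ± 1.10 CPM. The log2 difference was 4.15 ± 0.12 (SE, edgeR adjusted p = 6.71e-21) against the mean of the other classes, 3.55 against fibroblast-like, 4.04 against smooth muscle-like and 5.85 against endothelial-like nuclei, and all 4 passed the test. Valve interstitial-like nuclei held 56.9% of the gene's UMIs.

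After each nucleus was thinned to 1000 UMIs, the share of valve interstitial-like nuclei with an Adamts20 UMI was 12.2% ± 1.45 (SD, n = 3 pools), and it was 29.5% without thinning. Free RNA gives UMIs in nuclei that do not make a transcript, so the cardiomyocyte-like share serves as a background: 0.448% ± 0.0644 thinned and 1.11% unthinned. Median depths were 3582 UMIs in the former class and 5585 in the latter. The pericyte-like level rests on a mixed cluster. At a finer resolution 121 of its 248 nuclei joined a cluster led by Mylk4 and Csmd3, with Adamts20 at 37.4, 30.7 and 46.6 CPM, and 127 joined one led by Zfp804b, with 12.4, 4.20 and 0 CPM from 4 UMIs. The finer smooth muscle-like class, which took in the Mylk4 cluster, had an Adamts20 log2 difference of 0.55 (adjusted p = 0.0277, edgeR), against -0.47 (adjusted p = 0.0858, range over the alternatives 0.0277 to 0.511) here, so no direction is drawn for smooth muscle-like nuclei.

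Adamts9, an essential protease of the same subgroup with a carboxy-terminal GON domain, was at 29.3, 28.2 and 33.3 CPM in valve interstitial-like nuclei. In the other 7 classes its means lay between 105 ± 40.1 CPM in macrophage-like and 197 ± 45.1 in smooth muscle-like nuclei, and each of these classes overlapped its neighbour in the order. No pool of any of them reached down to the valve interstitial-like pools. The log2 difference was -2.42 ± 0.16 (SE, edgeR adjusted p = 6.77e-13). It was also lower than in fibroblast-like (-2.15), smooth muscle-like (-2.87) and endothelial-like nuclei (-2.54). Smooth muscle-like (0.86), cardiomyocyte-like (0.89), mesothelial-like (0.62) and endothelial-like nuclei (0.48) each passed as higher than the mean of their other classes. The endothelial-like call was lost when classes of 20 or more nuclei per pool entered the fit (0.28, adjusted p = 0.0676 in edgeR, the highest of 9.97e-08 to 0.0676 over the alternatives). 

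The endothelial-like mean of Adamts9 covered clusters far apart, which are described without a test because they were examined after their values were seen. In the 252 nuclei of the cluster led by Pcdh17 and Aplnr, which also had Fabp4 and Gpihbp1 among its leading genes, Adamts9 was at 768, 865 and 1089 CPM. The 308 nuclei led by Mannr and Ptchd1, with Sema3g and Gja5, had 299.7, 266 and 407 CPM. In contrast, the 722 nuclei led by Grid1 and Col23a1 had 17.1, 28.5 and 12.9 CPM and the 779 led by Cytl1 and Rtl4 had 33.3, 25.5 and 33.2 CPM. Both of these clusters overlapped the valve interstitial-like pools (28.2 to 33.3 CPM). The Pcdh17 cluster was above every pool of every other cluster in the series. Lymphatic endothelial-like nuclei, 122 in number, had 380.2, 263 and 539 CPM.

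Adamts1, the first described member of the family, was highest in endothelial-like nuclei at 179, 165 and 134 CPM and in smooth muscle-like nuclei at 142, 128 and 138 CPM. These classes overlapped each other and stood above pericyte-like nuclei (84.2 ± 14.5 CPM, SD, n = 3 pools), macrophage-like and fibroblast-like nuclei. Valve interstitial-like nuclei had 45.8, 32.6 and 27.9 CPM, and only cardiomyocyte-like (19.8 ± 3.50) and mesothelial-like nuclei (14.4 ± 6.14) had lower means. The log2 difference was 1.73 ± 0.09 (SE, edgeR adjusted p = 4.48e-16) in endothelial-like and 1.63 ± 0.10 (SE, edgeR adjusted p = 1.8e-14) in smooth muscle-like nuclei. The valve interstitial-like difference was -0.67 ± 0.14 (SE, edgeR adjusted p = 0.000338) against the mean of the others and -0.39 against fibroblast-like nuclei, where it did not pass the test (adjusted p = 0.186, edgeR). 

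Adamts5, the main aggrecanase of cartilage, whose loss in mice leaves valves enlarged and rich in versican, was low in valve interstitial-like nuclei at 56.2, 70.2 and 44.2 CPM. Fibroblast-like nuclei had 199, 230.3 and 174 CPM, mesothelial-like 177, 151 and 241 and smooth muscle-like 131, 189 and 205 CPM. These 3 classes overlapped one another, and none of their pools overlapped valve interstitial-like nuclei. The log2 difference of valve interstitial-like nuclei was -1.78 ± 0.18 (SE, edgeR adjusted p = 6.55e-09) against fibroblast-like and -1.68 against smooth muscle-like nuclei, and both passed, but against the mean of all other classes (-0.34) and against endothelial-like nuclei (-0.07, 95% interval -0.42 to 0.28) it did not pass. Against the mean it did pass as lower in 4 alternatives, from -0.33 with no filter on low counts to -0.74 with no mitochondrial limit, and one of these was the fit without pool 2 (-0.46). Cardiomyocyte-like nuclei, at 4.35 ± 1.82 CPM, were lowest. Among endothelial-like clusters, the 421 nuclei led by Kcnc2 and Fam155a, with Wnt9b and Wnt4, had 130.3, 169 and 133 CPM, and those led by Grid1 had 7.88, 12.8 and 24.1 CPM. Median mitochondrial shares were 2.87% in the Kcnc2 and 1.04% in the Grid1 cluster, and their part in this was not tested. RefSeq places Adamts1 and Adamts5 next to each other among protein-coding genes on mouse chromosome 16. In mesothelial-like nuclei Adamts5 was among the highest of the fitted classes and Adamts1 was the lowest.

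**Figure D2:**
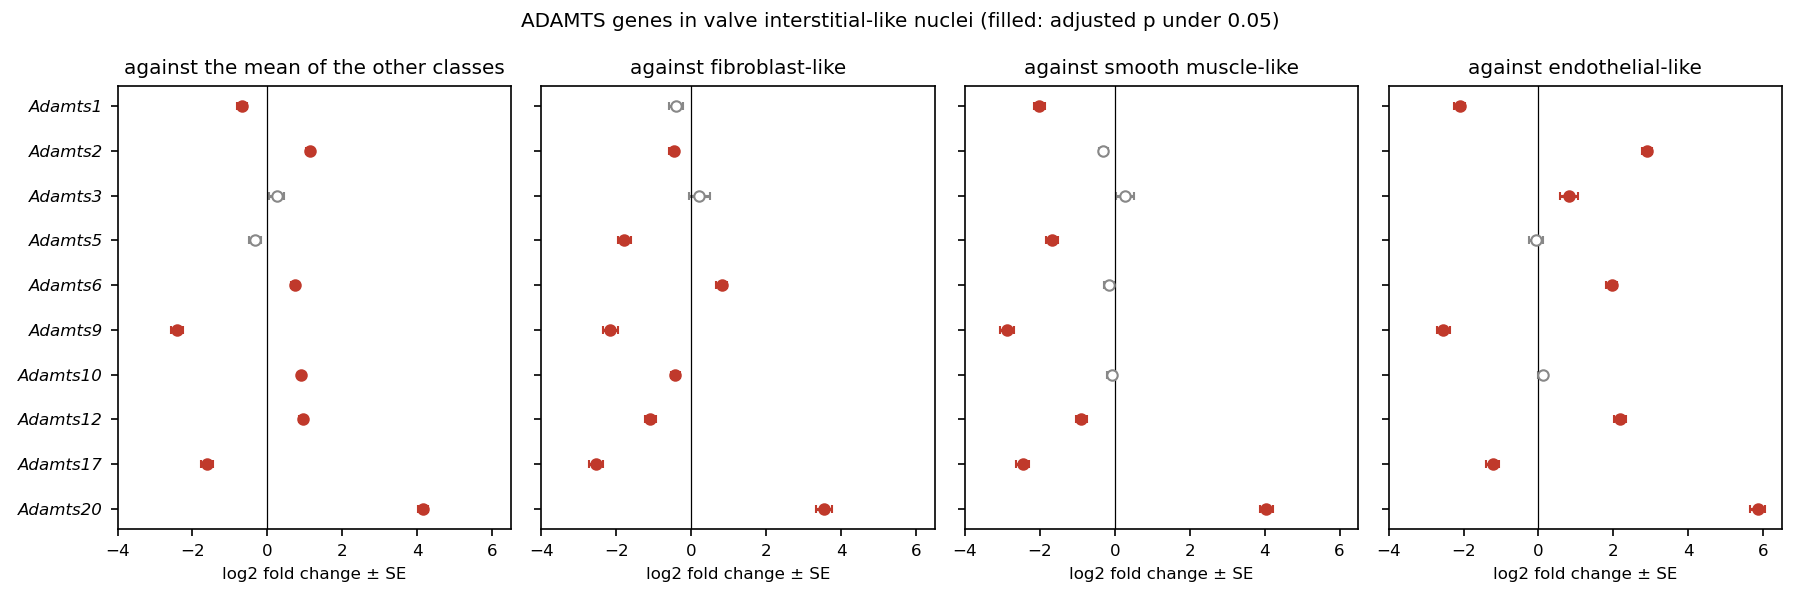
Log2 fold change (edgeR, ± SE) of each gene in valve interstitial-like nuclei against the mean of the other classes and against 3 single classes; filled points have an adjusted p under 0.05 and open points do not. Adamts20 is to the right of 0 and Adamts9 and Adamts17 to the left in all 4 panels.

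The procollagen N-proteinases differed in the class that led. Adamts2, which removes the amino-terminal propeptide of fibrillar procollagens and is lost in dermatosparaxis, was highest in fibroblast-like nuclei at 507, 464 and 521 CPM. It was at 393, 417 and 385 CPM in smooth muscle-like and at 335, 343 and 381 CPM in valve interstitial-like nuclei, and these 3 classes did not overlap. Endothelial-like (48.3 ± 4.65) and cardiomyocyte-like nuclei (25.2 ± 1.51) were lowest. The log2 difference of valve interstitial-like nuclei was 1.13 ± 0.09 (SE, edgeR adjusted p = 1.13e-11) against the mean of the others and -0.46 ± 0.12 (SE, edgeR adjusted p = 0.00542) against fibroblast-like nuclei. The latter call was lost without pool 1 (-0.40, adjusted p = 0.155) and without pool 3 (-0.48, adjusted p = 0.0638) and with no mitochondrial limit (-0.42, adjusted p = 0.102), within 0.000187 to 0.155 over the alternatives (edgeR and DESeq2), and against smooth muscle-like nuclei the difference (-0.30) had an adjusted p of 0.0531 in edgeR and passed as lower with DESeq2 (-0.28, adjusted p = 0.0335) and with doublets kept (-0.35, adjusted p = 0.0114), within 0.0114 to 0.628 over the alternatives.

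Adamts3, which acts on procollagen and, with CCBE1, on the lymphatic growth factor VEGF-C, led in cardiomyocyte-like nuclei at 71.1, 95.99 and 97.1 CPM. All other fitted classes lay between 13.02 ± 8.02 CPM in mesothelial-like and 29.05 ± 9.51 in valve interstitial-like nuclei and each overlapped the next in the order. The cardiomyocyte-like log2 difference was 2.43 ± 0.14 (SE, edgeR adjusted p = 1.83e-15). An unnamed cluster of 487 nuclei led by Lrrc4c and Erc2, in which 5 of 8 cardiomyocyte markers were raised, had 125, 153 and 129 CPM. After thinning, 6.16% ± 0.511 of cardiomyocyte-like nuclei had an Adamts3 UMI (29.8% unthinned), against 0.956% ± 1.11 of macrophage-like nuclei (6.75% unthinned), whose median depths were 5585 and 3698 UMIs.

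Of the members tied to fibrillin, Adamts10 and Adamts17 are altered in Weill-Marchesani syndromes and Adamts6 is the closest relative of Adamts10. Adamts10 was highest in fibroblast-like nuclei at 266, 251 and 254 CPM. It was at 205, 182 and 172 CPM in valve interstitial-like nuclei, which overlapped smooth muscle-like (182 ± 2.87, SD, n = 3 pools), endothelial-like (176 ± 19.6) and pericyte-like nuclei, while cardiomyocyte-like nuclei had 8.37 ± 2.69 CPM. The valve interstitial-like log2 difference was 0.90 ± 0.10 (SE, edgeR adjusted p = 9.57e-09) against the mean of the others, -0.08 against smooth muscle-like (95% interval -0.31 to 0.15) and -0.42 against fibroblast-like nuclei. That last call (adjusted p = 0.0141, edgeR) was lost in 6 alternatives and the adjusted p ranged over 0.0105 to 0.246, with 0.146 without pool 1, 0.246 without pool 3 and 0.141 with no pool block. A thinned UMI of Adamts10 was found in 24.05% ± 1.54 of fibroblast-like (57.1% unthinned, median depth 3704) and 0.882% ± 0.0306 of cardiomyocyte-like nuclei (4.66% unthinned).

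Adamts17 was low in valve interstitial-like nuclei. Fibroblast-like nuclei had 173, 177 and 157 CPM, smooth muscle-like 159.7, 138 and 129.5 and valve interstitial-like 34.7, 18.2 and 31.01 CPM. Valve interstitial-like nuclei had the lowest mean of the 8 classes, overlapping only mesothelial-like nuclei (31.9 ± 14.7). The log2 difference was -1.62 ± 0.16 (SE, edgeR adjusted p = 1.66e-09) against the mean of the others and -2.53 against fibroblast-like nuclei. Within cardiomyocyte-like nuclei, the 201 nuclei led by Ryr3 and Cpne5 had 155, 196 and 80.3 CPM and the 1554 led by D830005E20Rik and Fgf13 had 44.1, 37.2 and 41.7 CPM.

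Adamts6 was highest in cardiomyocyte-like nuclei, at 1295, 1519 and 1609 CPM. Smooth muscle-like nuclei had 993, 926 and 1189 and valve interstitial-like nuclei 1021, 949 and 1066 CPM, which overlapped each other and lay below every cardiomyocyte-like pool. Mesothelial-like (237 ± 32.8) and endothelial-like nuclei (267 ± 28.6) were lowest. The log2 difference was 1.85 ± 0.09 (SE, edgeR adjusted p = 2.37e-16) in cardiomyocyte-like and 0.74 ± 0.10 (SE, edgeR adjusted p = 1.4e-06) in valve interstitial-like nuclei. Against fibroblast-like nuclei the difference was 0.81 ± 0.15 (SE, edgeR adjusted p = 0.000118), and against smooth muscle-like nuclei it did not pass (-0.15, 95% interval -0.44 to 0.13). A thinned UMI was present in 68.5% ± 2.38 of cardiomyocyte-like (95.5% unthinned) and 21.1% ± 7.11 of macrophage-like nuclei (46.7% unthinned). Macrophage-like nuclei also held 8 of 8 cardiomyocyte markers at 1430.3 to 6569 CPM in sum, against 43080.5 to 44820.5 in cardiomyocyte-like and 509 to 1131 in valve interstitial-like nuclei. They held 8 of 8 smooth muscle markers at 1196 to 1547 CPM, against 3097 to 3953 CPM in smooth muscle-like nuclei. The smooth muscle list also summed to 2945 to 3170 CPM in cardiomyocyte-like and 2568 to 3594 CPM in pericyte-like nuclei. The part of both lists in the macrophage-like levels was not tested. The class held other immune markers too, 5 of 5 of B lymphocytes at 318 to 560.3 CPM and 5 of 5 of neutrophils at 15.8 to 297 CPM.

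Adamts12, which with Adamts7 carries a mucin-like domain and can cleave cartilage oligomeric matrix protein, was highest in fibroblast-like nuclei at 772, 715 and 898 CPM. Smooth muscle-like nuclei had 659, 561 and 638 and valve interstitial-like nuclei 331, 328 and 448 CPM. The 3 classes did not overlap, and mesothelial-like (43.04 ± 6.60) and cardiomyocyte-like nuclei (24.96 ± 6.91) were lowest. The log2 difference of valve interstitial-like nuclei was 0.95 ± 0.11 (SE, edgeR adjusted p = 5.51e-08) against the mean of the others, -1.08 against fibroblast-like and -0.89 against smooth muscle-like nuclei. A thinned UMI was found in 49.7% ± 2.09 of fibroblast-like nuclei (78.97% unthinned) and 2.15% ± 0.244 of cardiomyocyte-like nuclei (9.34% unthinned).

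**Figure D3:**
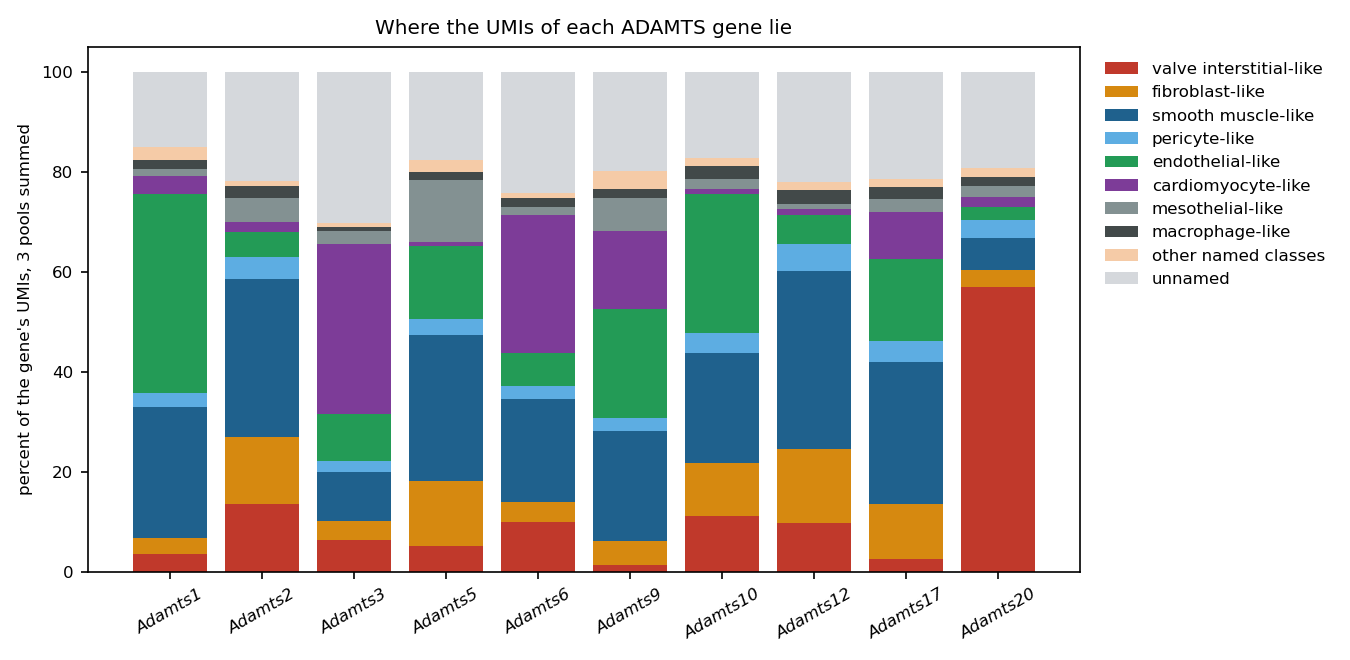
Percent of each gene's UMIs that lies in each class, over the 3 pools summed; a class with more nuclei or deeper nuclei takes a larger share at the same level. Valve interstitial-like nuclei hold 56.9% of Adamts20 UMIs and endothelial-like nuclei 39.9% of those of Adamts1.

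Across the other classes the calls were spread unevenly. In fibroblast-like nuclei 5 members were higher than the mean of the other classes and none lower (28.2% of all genes passed, 16.4% higher and 11.8% lower), namely Adamts12 (2.19), Adamts5 (1.70), Adamts2 (1.66), Adamts10 (1.39) and Adamts17 (1.28). Adamts20, at 0.09 there, was called higher at a resolution of 2 (1.29, adjusted p = 1.48e-05 in edgeR, with 1.48e-05 to 1 over the alternatives). Adamts1, at -0.22, was called lower with no mitochondrial limit (-0.50) and with a minimum of 500 UMIs (-0.37). In smooth muscle-like nuclei 8 were higher and none lower (39.9% of all genes passed, 22.7% higher and 17.3% lower), led by Adamts12 (1.97). Adamts3 and Adamts20 did not pass, 1 of them being lower at an unadjusted p in edgeR. Adamts20 was called lower with RLE scaling (-0.52, adjusted p = 0.0497 in edgeR) and higher at a resolution of 2 (0.55). In endothelial-like nuclei 3 were higher and 5 lower (46.1% of all genes passed, 24.5% higher and 21.6% lower), the lower ones led by Adamts20 (-2.53) and Adamts2 (-2.18). Cardiomyocyte-like nuclei had 3 higher and 6 lower (68% of all genes passed, 34.6% higher and 33.4% lower), and mesothelial-like nuclei, whose median depth of 9964 UMIs was the greatest of the fitted classes, 2 higher and 6 lower (63.6% of all genes passed, 30.5% higher and 33.1% lower). Mesothelial-like nuclei also had the greatest median mitochondrial shares of the fitted classes (2.98%, 2.94% and 2.60%). The part of these shares in the calls was not tested. The lower calls of Adamts3 were unsteady: the mesothelial-like one (-0.68) was lost in 6 alternatives, among them without pool 2 (-0.56) and without pool 3 (-0.33), and the endothelial-like one (-0.70) when classes of 20 or more nuclei per pool entered the fit (-0.48). In macrophage-like nuclei no member passed as higher in edgeR (Adamts12 was the 1 at an unadjusted p under 0.05 and the 1 with DESeq2) and 4 were lower (28.8% of all genes passed, 16.1% higher and 12.7% lower), namely Adamts3 (-1.33), Adamts5 (-0.75), Adamts9 (-0.53) and Adamts6 (-0.39). The call of Adamts6 was lost in 8 alternatives, DESeq2 (-0.32) and the fit with no replicate block (-0.37) among them. Without pool 1 that count was 1, and without pool 2 it was 2, of which Adamts12 was higher (0.57, adjusted p = 0.000814 in edgeR, against 0.31 with adjusted p 0.000814 to 0.518 over the alternatives, 7 of which called it). Against single classes, valve interstitial-like nuclei had 2 members higher and 6 lower than fibroblast-like (17.4% of all genes passed, 8.72% higher and 8.67% lower), 1 higher and 5 lower than smooth muscle-like (29.4% of all genes passed, 14.5% higher and 14.9% lower) and 5 higher and 3 lower than endothelial-like nuclei (40% of all genes passed, 19.8% higher and 20.2% lower), where the higher call of Adamts3 (0.83) was lost without pool 1 (0.53).

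Smooth muscle-like nuclei fell into 3 clusters that differed in several members; like the endothelial-like clusters they are described without a test. Adamts12 was at 942, 811 and 1016 CPM in the 1337 nuclei led by Ptprz1 and Mylk4, at 361, 346 and 469.8 in the 1120 led by Clca3a2 and Pi15 and at 361, 344 and 372 in the 603 led by Itgbl1 and Sntg2. Adamts1 ran the other way, at 82.7, 83.9 and 69.8, 218, 181 and 198 and 167, 142 and 129 CPM in the same clusters. Adamts2 was highest in the Itgbl1 cluster at 661, 587 and 551 CPM, as was Adamts6 at 1411, 1358 and 1627 CPM. No pool of the leading cluster overlapped the other clusters for Adamts12, Adamts1, Adamts2 or Adamts6. In fibroblast-like nuclei, the 232 led by Tmeff2 and Fgf10 had 283 ± 117 CPM (SD, n = 3 pools) of Adamts9 and 301 ± 62.8 of Adamts5, against 97.9 ± 11.4 and 171 ± 15.9 in the 734 led by Abca8a, where Adamts17 was the higher at 191 ± 16.2 against 98.1 ± 18.3 CPM.

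**Figure D4:**
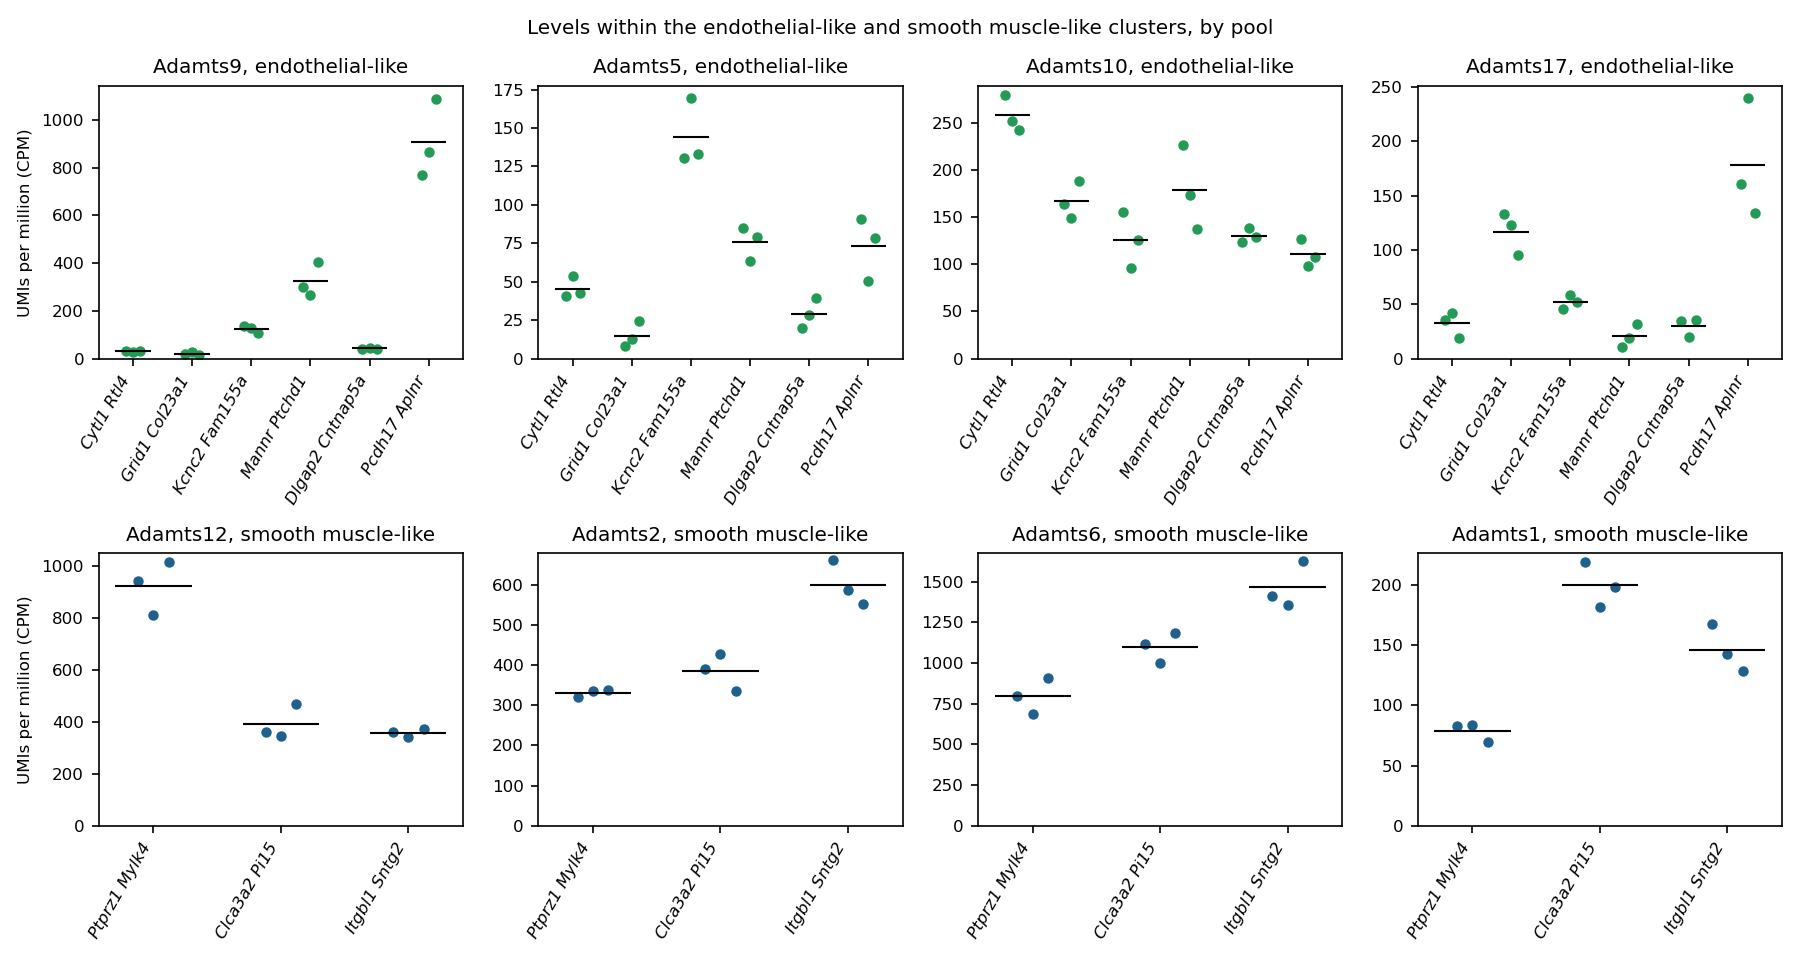
Levels within the 6 endothelial-like clusters (top) and the 3 smooth muscle-like clusters (bottom), each named by 2 leading genes, in CPM on linear axes from 0; points are pools and bars are means of 3 pools. Adamts9 in the Pcdh17 Aplnr cluster lies between 768 and 1089 CPM, and Adamts12 in the Ptprz1 Mylk4 cluster between 811 and 1016 CPM.

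The valve interstitial-like class held a cluster of 479 nuclei led by Rmst and Rnf43 and one of 978 led by Ctnna2 and Abi3bp. Adamts20 was at 153, 152 and 147 CPM in the former and 137, 165 and 150.1 in the latter, and the ranges overlapped (log2 difference 0.05, 95% interval -0.19 to 0.29). Adamts3 was at 14.9, 7.40 and 7.74 CPM in the Rmst cluster and 52.6, 43.6 and 25.9 in the Ctnna2 cluster, with no overlap, and its log2 difference was -1.94 ± 0.27 (SE, edgeR adjusted p = 4.26e-05). In all, 5 members were lower in the Rmst cluster and none higher, 1 being so at an unadjusted p in edgeR and none with DESeq2 (of 10445 genes 14.8% passed, 7.52% higher and 7.3% lower), the others being Adamts9 (-1.30), Adamts17 (-1.14), Adamts2 (-0.64) and Adamts10 (-0.35). Without pool 1 only Adamts3 passed, and Adamts3 was the single member called in every alternative. The cluster border moved with the settings: with doublets kept, no mitochondrial limit or a minimum of 500 UMIs the Rmst cluster held 918, 895 and 860 nuclei, Adamts5 was then lower in it (-0.98, -0.74 and -0.92, against 0.19 here), and Adamts20 was higher (0.95, 0.59 and 0.83, and 0.85 at a resolution of 2). Adamts12, at 0.31 here, was called higher in the Rmst cluster in 5 alternatives (0.54 to 0.84), among them the fit without pool 2 (0.54), and Adamts1, at -0.45, was called lower in 3 (-0.89 to -0.77), again with the fit without pool 2 (-0.89).

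Adamts19, left out of the set, had 2228, 1724 and 2436 CPM in valve interstitial-like and 398, 399 and 400.5 in fibroblast-like nuclei, and like Adamts20 was higher in the former (log2 difference 2.43).

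The genes around these proteases were read from lists, whose genes were kept out of the clustering, as the members were. Their counts stand beside 33.4% of all genes called against the mean of the other classes (18.4% higher, 15% lower) and 17.4% against fibroblast-like nuclei (8.72% higher, 8.67% lower). Of 7 proteoglycans and hyaluronan partners that could be tested, 5 exceeded the mean of the other classes in valve interstitial-like nuclei and none was lower (median 1.99, against 0.00 over all genes, of which 18.4% were higher). They were led by the link protein gene Hapln1 (4.01), the hyaluronan synthase gene Has2 (3.73), versican (Vcan, 2.76) and the hyaluronan receptor gene Cd44 (1.99), and 4 of the 7 were also higher than in fibroblast-like nuclei (median 1.44). Vcan, the substrate of Adamts1, Adamts5, Adamts9 and Adamts20, was at 2305, 2381 and 2494 CPM in valve interstitial-like and 776, 874 and 695 in fibroblast-like nuclei, without overlap. Cd44 was at 244 to 261 CPM in valve interstitial-like and 187 to 320 CPM in macrophage-like nuclei, which overlapped. Of 9 procollagen genes and processing enzymes, 6 were higher and 1 lower (median 0.92, 33.4% of all genes called), with Col5a1 (1.33), Pcolce (1.14) and Bmp1 (0.94) higher and Tll1 (-1.36) lower, but against fibroblast-like nuclei 6 were lower and none higher (17.4% of all genes called), among them Col3a1 (-1.16). The call of Tll1 was lost without pool 1 (-0.60) and without pool 2 (-1.25). Pcolce was at 393 to 734 CPM in mesothelial-like nuclei, above the 77.5 to 172 CPM of valve interstitial-like nuclei. 

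Among 8 fibrillin genes and partners, 7 were higher and none lower (median 0.96, 33.4% of all genes called), led by Ltbp2 (2.22), Fbn2 (1.72), Fbln1 (1.51) and Ltbp3 (1.22). Against fibroblast-like nuclei 4 were higher, Ltbp2 (1.46), Ltbp3 (1.27), Ltbp1 (1.15) and Fbn2 (0.65), and 1, Fbn1, was lower (-1.18; median 0.28). Fbln1 was at 370 to 721 CPM in mesothelial-like nuclei, above the 129 to 200 CPM of valve interstitial-like nuclei. With no mitochondrial limit the procollagen and the fibrillin counts were 4 each. The 7 ADAMTS-like genes, which have the repeats without the protease domain, gave 2 higher, Adamtsl3 (2.16) and Adamtsl2 (0.70), and 2 lower, Thsd4 (-2.82) and Adamtsl5 (-1.27), than the mean of the other classes (median 0.06). Against fibroblast-like nuclei 1 was higher and 5 were lower (median -1.20). The lower ones included Adamtsl2 (-1.20), Thsd4 (-1.79), Adamtsl5 (-2.34) and Papln (-2.59, from 7 valve interstitial-like and 31 fibroblast-like UMIs). The 4 of 7 called against the mean of the others compare with 33.4% of all genes, and the call of Adamtsl2 was lost without pool 1, without pool 2 and without pool 3 (adjusted p = 0.0671, 0.144 and 0.145 in edgeR). Thsd4, a fibrillin-binding member, was at 2245, 1818 and 2129.5 CPM in smooth muscle-like and 106, 55.7 and 79.8 CPM in valve interstitial-like nuclei. Of 11 inhibitors, clearance receptors and activating convertases, 6 were higher and 1 lower (median 0.48, 33.4% of all genes called), led by Timp3 (2.10), Timp1 (2.04), the endocytic receptor gene Lrp1 (1.30) and Sdc4 (0.85). Against fibroblast-like nuclei 4 were higher, again with Timp3 (2.30), and 2 lower, with the convertase gene Pcsk6 (-2.07). Mesothelial-like nuclei exceeded valve interstitial-like nuclei in Timp1 (109 to 160 against 54.8 to 93.8 CPM) and in Sdc4 (109 to 138 against 20.2 to 56.4 CPM). Timp3 overlapped mesothelial-like nuclei (207 to 264 against 235 to 397 CPM). Lrp1 overlapped fibroblast-like nuclei (255 to 352 against 223 to 287 CPM).

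Of the remaining ADAMTS genes, 7 of 8 could be tested and 2 passed as higher, Adamts8 (0.82) and Adamts15 (0.73), and 1 as lower, Adamts16, which had 0 UMIs in valve interstitial-like nuclei (3 UMIs over the 3 pools would be 0.528 CPM) and 12.1, 6.30 and 0 CPM in fibroblast-like nuclei. Against fibroblast-like nuclei none of the 7 was higher (also none at an unadjusted p in edgeR or with DESeq2) and 3 were lower (median -1.55), Adamts4 (-1.55), Adamts14 (-1.76) and Adamts16. The 3 of 7 called against the mean of the others are near the 33.4% of all genes called. The median of this list was 0.68, with Adamts16 below it at its fitted value. Without pool 2 the edgeR count for this list was 0 (2 at an unadjusted p under 0.05, and 2 with DESeq2 on all pools). Of the 3 genes of VEGF-C activation, Vegfc was higher (0.81), Ccbe1 lower (-1.05) and Flt4 did not pass (median -0.66, 33.4% of all genes called); Ccbe1 was also lower than in fibroblast-like nuclei (-4.09). Ccbe1 rests on 40, 4 and 4 UMIs in the valve interstitial-like pools, and the count of this list fell from 2 to 1 without pool 2, without pool 3, with doublets kept and at a resolution of 2.

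The genes whose log2 CPM followed each member most closely over the 24 libraries (8 classes by 3 pools, which share pools and class depth) are given as a description. Adamts2 ran closest to Ddr2 (r = 0.99), Sdc2 (r = 0.97), Col6a6 (r = 0.96) and Adamts10 to Rhoj (r = 0.98), Gulp1 (r = 0.97), Fbn1 (r = 0.96). For Adamts12 they were Foxp2 (r = 0.98), Col27a1 (r = 0.98), Tmem26 (r = 0.97), and for Adamts5 Col14a1 (r = 0.94), Snhg18 (r = 0.93), Arcn1 (r = 0.92). Adamts6 was followed by Garem1 (r = 0.98), Atxn1 (r = 0.95), Enah (r = 0.93), Adamts1 by Nuak1 (r = 0.93), Fblim1 (r = 0.89), Art4 (r = 0.89) and Adamts3 by Tmem38a (r = 0.88), C920021L13Rik (r = 0.87), Cisd2 (r = 0.87). The 3 nearest to Adamts20 were Bmper (r = 0.90), Slc27a6 (r = 0.89), Ctnna2 (r = 0.89), and those of Adamts9 were Gm51671 (r = 0.91), 2700046G09Rik (r = 0.90), Sgms1 (r = 0.85). Adamts17 had the loosest matches, LOC105243553 (r = 0.85), Mageb18 (r = 0.82), Hoxa3 (r = 0.80).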

How the data were processed

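The authors deposited whole UMI counts for each gene in each nucleus, made with Cell Ranger 7.0.1 and 7.1.0 on build GRCm39 per the submitters' processing notes, in 1 matrix per pool; which version did which step is not given in the sources used here. Nuclei were kept with at least 1000 UMIs, 300 genes and no more than 5% mitochondrial UMIs. Scrublet's automatic threshold marked 0, 0 and 1 nuclei, so the highest scores were removed instead at 0.8% per 1000 deposited nuclei (597, 154 and 138 nuclei). Values scaled to 10000 UMIs, on a log scale, were clustered with scanpy 1.11.5 and leidenalg 0.10.2 (2000 variable genes, 30 components, 15 neighbours, resolution 1), without the members, Adamts19, cell cycle, sex-linked and mitochondrial genes and without integration of pools. A cluster took a name from 1 of 20 marker lists when at least 3 markers were present in 10% of its nuclei and 2-fold above the other nuclei (pseudocount 5 CPM). It stayed unnamed if its 10 leading genes held more markers of another class than of its own. The same held for a cluster of low depth with none of its own markers among those genes. A cluster that matched the endocardial list best was named endothelial-like. 

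The deposited counts, summed over the nuclei of each class in each pool, were tested with edgeR 4.0.16 in R 4.3.3 (filterByExpr, TMM, quasi-likelihood, Benjamini-Hochberg) with the pool as block, since its classes share 1 library. Deviations of classes from the same pool correlated with a median of 0.141, and of different pools with -0.0718. DESeq2 1.42.0 was an alternative, as were RLE scaling, no low-count filter, no block, leaving out each pool, kept doublets, 500 UMIs, no mitochondrial limit, resolution 2 and a 20-nucleus minimum in place of 40. Shares were taken after thinning to 1000 UMIs. The text names all 10 members and, of each list, up to 4 called genes of largest change and the 3 nearest genes per member. Fbn2 is named beyond these for valve interstitial-like against fibroblast-like nuclei. The members, lists and tests were chosen with earlier results of these data known. The pericyte-like class entered the fit by its number of nuclei, and no comparison of it was made. The open chromatin data are not analysed here, and precision is limited by 3 pools and by counting error where few UMIs are given.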

Additional observations from a re-analysis of the deposited data

How the results depend on the processing

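Of 110 pairs of a member and a comparison, 77 passed the threshold and 63 of these passed in every alternative run; of 1310 alternative values 4 were reversed, 48 weaker and 37 stronger, and 14 of the pairs that did not pass did so in at least 1 alternative. The reversed ones were Adamts20, smooth muscle-like against the mean of the other classes, at a resolution of 2 (0.55), and Adamts5, Rmst against Ctnna2 valve interstitial-like clusters, with doublets kept (-0.98), no mitochondrial limit (-0.74) and at least 500 UMIs (-0.92). The count of members called between these clusters was 2 with DESeq2, 8 with no mitochondrial limit and 8 with at least 500 UMIs, and 1 to 6 when each pool was left out, against 5. In macrophage-like nuclei it was 1 to 4 without 1 pool, against 4. Of the lists in valve interstitial-like nuclei, the other ADAMTS had 1 call with no mitochondrial limit and 0 to 2 without 1 pool (against 3), and VEGF-C activation had 1 with doublets kept or a resolution of 2 and 1 to 2 without 1 pool (against 2). Procollagens and fibrillins had 4 each with no mitochondrial limit (against 7 each). The cause was not tested. With no replicate block, the members called between the valve interstitial-like clusters were 2, the other ADAMTS had 1 call, and 5 called pairs were lost in all. Over all genes, calls between the valve interstitial-like clusters were 1548, but 681 with DESeq2, 821 with no replicate block and 733 without pool 1. Without pool 1, which holds the most nuclei, calls over all genes also fell by more than 1.5 times in 6 other comparisons: from 4945 to 3253 for valve interstitial-like against the mean of the others, 4171 to 2662 for fibroblast-like, 5912 to 3464 for smooth muscle-like, 4261 to 2695 for macrophage-like, and 2574 to 1564 and 4347 to 2839 for valve interstitial-like against fibroblast-like and smooth muscle-like.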

Other observations

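Nuclei outside the named classes and the filters carried the members at their own levels. The unnamed cluster of 552 nuclei led by Neil3 and Diaph3, with the mitotic genes Kif11 and Top2a among its leading genes, had 30.6, 51.02 and 47.4 CPM of Adamts20 in pools 1, 2 and 3, below every valve interstitial-like pool and above every fibroblast-like one. Melanocyte-like nuclei, 74 in number, had 24.4, 39.5 and 157 CPM of Adamts20 from 16 UMIs in all, so that 1 pool set their mean. In the finer clustering, the 161 nuclei led by Mylk4, Csmd3, Col19a1 and Grm3 had Rmst at 89.1, 53.8 and 41.4 and Adamts19 at 317, 376 and 414 CPM. Of the other valve interstitial markers only Sox9, at 22.5, 7.68 and 24.1 CPM, and Matn4, at 3.74, 0 and 6.90 CPM, were read there. The whole marker list summed to 91.7 to 550.1 CPM in the pericyte-like class, from which 121 of the 161 nuclei came. In the Mylk4 cluster Myh11 was at 517, 330.2 and 533 CPM, below the 1081, 933 and 1026 CPM of the cluster led by Zfp804b. That cluster, of 131 nuclei, had 0 UMIs of Rmst and 24.8, 21.01 and 5.67 CPM of Sox9, and its Abcc9, a pericyte marker, was at 1126, 1702 and 1060.5 CPM against 128, 138 and 87.96 CPM in the Mylk4 cluster. Whether the Mylk4 nuclei are single nuclei or pairs was not tested.

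The 6159 deposited nuclei with over 5% mitochondrial UMIs, which were left out, had 254, 245 and 314 CPM of Adamts6, 17.7, 15.7 and 16.8 of Adamts3 and 104, 103 and 108 of Adamts1. In the analysed nuclei the same genes were at 727, 772 and 992, 32.7, 43.6 and 45.3 and 97.8, 77.8 and 70.4 CPM. The left-out nuclei were thus lower in Adamts6 and Adamts3 in all 3 pools and higher in Adamts1.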
